A study of Homo sapiens with 8 samples.

Results

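The promoters of 10 lung and endoderm transcription factor genes were examined: FOXA1, FOXA2 and FOXA3, GATA6, CEBPA, CEBPB and CEBPD, HNF4A, KLF5 and ELF3. They were 10 of the 17133 genes annotated on the promoter arrays, and they were selected by name. A probe was assigned to a gene when its gene name or 1 of its annotated transcription starts carried that symbol. This gave 381 of the 474411 non-control probes, and 379 of them had usable values on all arrays, between 22 for FOXA3 and 50 for FOXA2. The cells were A549, a lung alveolar epithelial carcinoma line, which were serum-starved and then either left unstimulated or given TGFβ1 (2 ng/ml, at most 2 h by the labels). All samples were of this single line, with no other genotype. Chromatin was precipitated with an antibody to SMAD3 (labelled with Cy5) or with an anti-FLAG control antibody, called mock (labelled with Cy3). Each condition had 2 replicates by the labels, on 2 slides that carry different probes, 8 arrays in all. The study's text describes more array replicates than the labels give. The material was genomic DNA, so the expression of cell type markers could not be examined.

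TGFβ1 signals through receptor kinases that phosphorylate SMAD3, which then enters the nucleus with SMAD4 and binds short DNA elements next to partner factors. FOXA proteins are pioneer factors that open chromatin in foregut endoderm and in the airway, and GATA6, HNF4A and the C/EBP proteins act with them in endodermal epithelia. KLF5 and ELF3 are epithelial factors of the Krüppel-like and ETS families.

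The measurement was the log2 ratio of SMAD3 to mock signal, centred on the median of its array. Both channels were well above background for 38.7% to 51.5% of probes per array. In 36.19% to 49.11% of probes neither channel was significantly above background, so that a value near 0 can stand for a site without signal in either precipitation. Replicates correlated across probes with r = 0.896 (unstimulated) and 0.918 (stimulated), whereas arrays of different conditions correlated with r = 0.204 to 0.227. These are correlations across probes, which are not independent replicates. Whether the replicates of a condition shared a precipitation or an amplification was not tested. If they did, condition and preparation cannot be told apart. Of the 379 probes, 191 (50.4%) were well above background in both channels on all arrays and 67 (17.7%) in neither channel on any, against 34.0% and 28.3% of all probes. KLF5 had the most dark probes, 25 of 40. The dyes were not swapped, so antibody and dye cannot be told apart. Positions below are in bp from the annotated transcription start, negative upstream.

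Promoter sequences are shown for 5 of the 6 genes whose ratio next to the start changed between the conditions. ELF3, the other one, had little measurable signal there. Each is the 250 bases before a RefSeq start on GRCh38.p14, 5′ to 3′ on the strand of the gene. Capitals mark GTCT or AGAC, the core of the SMAD binding element, and GGCGCC, a second SMAD motif. The RefSeq start can differ from the one that the array used. FOXA1 lies on the minus strand at chr14:37595250-37595499, GATA6 at chr18:22169339-22169588, CEBPB (its second start) at chr20:50190580-50190829 and KLF5 (its second start) at chr13:73058755-73059004. HNF4A has an upstream promoter (P2) at chr20:44355449-44355698 and a downstream promoter (P1) at chr20:44400989-44401238.
FOXA1: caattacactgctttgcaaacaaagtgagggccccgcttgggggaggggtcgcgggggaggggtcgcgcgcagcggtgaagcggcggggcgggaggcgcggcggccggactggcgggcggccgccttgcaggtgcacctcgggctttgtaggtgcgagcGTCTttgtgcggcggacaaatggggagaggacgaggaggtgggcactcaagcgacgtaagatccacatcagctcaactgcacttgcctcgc
GATA6: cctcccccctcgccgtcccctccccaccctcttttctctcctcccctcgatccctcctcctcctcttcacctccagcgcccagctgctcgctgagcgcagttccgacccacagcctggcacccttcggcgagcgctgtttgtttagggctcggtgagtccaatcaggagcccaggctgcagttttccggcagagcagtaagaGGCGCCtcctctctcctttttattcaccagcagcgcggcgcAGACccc
CEBPB: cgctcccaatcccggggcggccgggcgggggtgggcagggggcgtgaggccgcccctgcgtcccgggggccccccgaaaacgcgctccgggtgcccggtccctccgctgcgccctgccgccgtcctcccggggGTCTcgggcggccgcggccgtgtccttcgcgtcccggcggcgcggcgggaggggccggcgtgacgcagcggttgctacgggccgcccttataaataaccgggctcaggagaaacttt
KLF5: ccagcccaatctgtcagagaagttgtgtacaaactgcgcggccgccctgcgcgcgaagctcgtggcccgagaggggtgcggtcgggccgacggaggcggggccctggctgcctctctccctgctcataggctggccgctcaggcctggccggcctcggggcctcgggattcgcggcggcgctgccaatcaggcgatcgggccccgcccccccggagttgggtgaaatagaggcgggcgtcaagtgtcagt
HNF4A P2: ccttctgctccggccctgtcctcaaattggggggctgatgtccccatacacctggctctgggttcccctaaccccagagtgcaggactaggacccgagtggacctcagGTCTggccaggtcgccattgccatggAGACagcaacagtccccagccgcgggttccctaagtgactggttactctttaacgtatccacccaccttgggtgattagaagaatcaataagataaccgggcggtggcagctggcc
HNF4A P1: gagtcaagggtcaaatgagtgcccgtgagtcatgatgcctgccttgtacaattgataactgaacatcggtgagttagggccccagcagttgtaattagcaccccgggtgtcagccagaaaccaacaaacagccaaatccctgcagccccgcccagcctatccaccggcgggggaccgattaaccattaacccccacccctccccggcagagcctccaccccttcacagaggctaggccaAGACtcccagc
A GTCT or AGAC was found once in FOXA1, GATA6, CEBPB and HNF4A P1, and at 2 positions in HNF4A P2. The printed KLF5 promoter had none. On either strand, 9 of the 11 promoters of the 8 genes with sequences analysed (all but FOXA2 and CEBPD) held a GTCT or AGAC, as did 77.5% of all 35116 promoters. The longer CAGAC or GTCTG, which contains the shorter motif, was found in 4 of the 11 against 38% of all. GGCGCC was found in 3 of the 11 (FOXA3, GATA6 and CEBPA) against 16.4%. GC content ran from 40.8% in the first KLF5 promoter to 81.2% in CEBPA, and the median of all promoters was 58%. These letters are a description of the sequence and do not locate a binding site.

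Over the whole promoter window, from 2000 bp upstream to 800 bp downstream of a start, SMAD3 signal exceeded mock at CEBPD, CEBPA, KLF5 and FOXA1 in unstimulated cells and was below mock at the other 6 genes. After TGFβ1 the ratio was above 0 at CEBPA, CEBPD and KLF5. FOXA1 changed side. It lay below 0 after stimulation, with FOXA2, FOXA3, HNF4A and ELF3, while GATA6 and CEBPB did not differ from 0 by the test. Of all 15961 genes with a window, 20.7% were called above 0 and 38.5% below in unstimulated cells. After TGFβ1 these shares were 16.6% and 42.9%. All signed values are relative to the array medians, which were 0.2375 to 0.7246 before centring. Without centring, the deposited ratios put FOXA2 (0.27 unstimulated, 0.043 stimulated), HNF4A (0.042, 0.37) and GATA6 (0.08, 0.51) above 0 in both conditions, and FOXA3 (0.056) when unstimulated and CEBPB (0.60) when stimulated. The tests here and below are limma's moderated tests with Benjamini-Hochberg adjustment over all genes, zones or probes, called under an adjusted p of 0.05.

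Between the conditions, the window ratio of CEBPB rose, those of FOXA1 and FOXA3 fell, and the other 7 genes did not pass the test. This is 1 rise and 2 falls among 10 genes, beside 20.4% of all genes called higher and 27.5% called lower, and with so few genes the shares cannot be set apart from the background. Without centring, 4378 genes were called higher and 3488 lower, against 3256 and 4397 with it, and of the 10 genes 3 were higher and 1 lower. The median change of the 10 genes was -0.12 on the log2 scale, and that of all genes was -0.06. The replicates of the conditions did not overlap for 9 of the 10 genes, CEBPA being the exception, and for 74.8% of all genes. In order of the unstimulated window mean the genes were CEBPD, CEBPA, KLF5, FOXA1, FOXA2, GATA6, FOXA3, HNF4A, CEBPB and ELF3. KLF5 and FOXA1 did not differ beyond their replicate spread, nor did GATA6, FOXA3 and HNF4A among themselves. Each window rests on its own probes, so this order is a description.

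**Figure D1:**
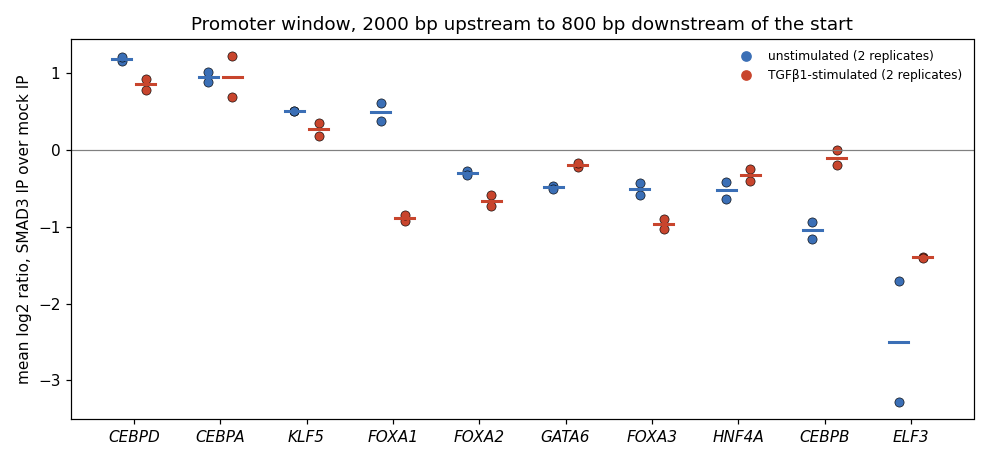
Log2 ratio of SMAD3 to mock signal (y axis) over the promoter window of each of the 10 genes, one point per replicate, for unstimulated and TGFβ1-stimulated cells, with bars at the group means. FOXA1 goes from 0.61 and 0.38 to -0.93 and -0.85, CEBPB moves up, and the 2 unstimulated ELF3 replicates lie far apart.

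FOXA1, the pioneer factor of airway and hormone-responsive epithelia, had the largest called fall of the 10 genes over the window. Its 15 window probes averaged 0.61 and 0.38 in the unstimulated replicates and -0.93 and -0.85 after TGFβ1. The groups did not overlap. The change was -1.38 (SE 0.14, adjusted p = 9.02e-05). Most of the fall came from 2 neighbouring probes. At -497 the ratio was 2.36 and 2.43 unstimulated and -6.12 and -5.82 stimulated, a change of -8.36 (SE 0.15, adjusted p = 0.00203). At -383 it was 0.13 and 0.25 against -7.99 and -6.97. At both sites the mock channel differed more than the SMAD3 channel. Relative to its array median, mock log2 signal at -497 was 3.49 unstimulated and 8.76 stimulated, while SMAD3 signal was 6.51 and 3.48. Without these 2 probes, an alternative chosen after seeing the data, the FOXA1 window change was -0.36 (adjusted p = 0.0766). The other 13 probes averaged 0.51 and 0.23 unstimulated and 0.02 and 0.01 stimulated. Further upstream, mock log2 signal at 4 neighbouring probes from -3029 to -2650 was 5.63 to 10.5 higher in stimulated cells. The part of the mock signal in the fall was not tested.

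Next to its start the mean FOXA1 ratio was above 0 in both conditions. Over the 2 probes within 250 bp the ratio was 1.97 and 1.50 unstimulated and 0.73 and 0.89 stimulated. This is 1.74 ± 0.33 against 0.81 ± 0.11 (SD, n = 2), with a fall of 0.93 on the log2 scale (adjusted p = 0.0277). That fall was no longer called without unstimulated replicate 1 (adjusted p = 0.0743) or without either stimulated replicate (0.134 and 0.101). The level above mock after TGFβ1 rested on the probe at 180 bp, with 2.17 and 2.29 unstimulated and 1.62 and 1.88 stimulated. The probe nearest the start, at 10 bp, gave 1.78 and 0.71 unstimulated and -0.16 and -0.10 stimulated, and its mean did not differ from 0 in either condition (adjusted p = 0.0806 and 0.872). The largest called rise of a FOXA1 probe lay at -4752. There the ratio was -0.10 and -0.23 unstimulated and 6.66 and 5.81 stimulated, a change of 6.40 (SE 0.35, adjusted p = 0.0044), and SMAD3 log2 signal went from 1.16 to 10.1 while mock went from 0.70 to 3.18.

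FOXA2, which controls airway epithelial differentiation and mucus production, showed SMAD3 above mock at the probe nearest its start in both conditions but no called change there. The probe nearest the start, at -37, gave 1.37 and 1.90 unstimulated and 1.37 and 2.03 stimulated. The mean was above 0 in both conditions (adjusted p = 0.0256 and 0.0231 against 0). The change at this probe was 0.06 (SE 0.35, adjusted p = 0.936). This SE leaves room for a rise or a fall. SMAD3 log2 signal at this probe was 2.52 unstimulated and 3.82 stimulated, and mock was 0.26 and 1.43, so both channels were higher after TGFβ1. The mean of the 3 probes within 250 bp was -0.32 and -0.38 unstimulated and 0.59 and -0.17 stimulated, a difference of 0.56 (SE 0.28, adjusted p = 0.197). The stimulated replicates thus lay further apart than the unstimulated ones. The mean of these probes did not differ from 0 in either condition (adjusted p = 0.22 and 0.453).

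Over its 22 window probes FOXA2 averaged -0.28 and -0.33 unstimulated and -0.59 and -0.73 stimulated. The 2 groups did not overlap, and the change of -0.36 (SE 0.14, adjusted p = 0.0593) narrowly missed the threshold. With the replicate number as a block it was called (adjusted p = 0.0487), as it was when each slide was fitted alone (0.0313). Over the narrower window from 1000 bp upstream to 500 bp downstream it was 0.086 (adjusted p = 0.731), and with loess, the deposited ratios and medians it was -0.21, -0.22 and -0.19, none called. The called fall lay upstream. In the zone between 2000 and 250 bp upstream, 15 probes gave -0.29 and -0.35 against -0.96 and -1.09, a fall of 0.71 on the log2 scale (SE 0.12, adjusted p = 0.0142). Its largest single fall was at -1302, where the ratio went from -1.17 and -1.16 to -5.17 and -4.82 (change -3.83, adjusted p = 0.00323). There SMAD3 log2 signal was 9.34 unstimulated and 6.12 stimulated, with mock at 9.88 and 10.4.

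Downstream of the start FOXA2 had single probes with SMAD3 above mock. Over the 9 probes beyond 800 bp downstream the mean was 0.02 unstimulated and 0.51 stimulated (adjusted p = 0.878 and 0.0158 against 0). At 1349 bp the ratio was 2.03 and 2.19 unstimulated and 1.54 and 1.71 stimulated, above 0 in both. At 2143 and 2249 bp it was also above 0 in both conditions, and it fell after TGFβ1 by 1.01 and 1.11 on the log2 scale (adjusted p = 0.0135 and 0.0094). The probe at 2351 bp went the other way, from -4.30 and -3.82 to 1.66 and 1.83 (change 5.80, SE 0.22, adjusted p = 0.00275). Its mock log2 signal was 9.98 unstimulated and 3.43 stimulated, while SMAD3 was 6.55 and 5.87. Of the 50 FOXA2 probes, 2 rose and 5 fell, whereas 10.5% of all probes rose and 12.4% fell. By the root mean square difference over the 4 replicates, the windows closest to that of FOXA2 were FLJ20186 (0.04), NOSIP (0.05) and ZNF24 (0.05). Among all other genes, 1466 of 15960 lay within 0.25 of it, so a window like that of FOXA2 was common.

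FOXA3, the family member best known from liver and from mucus-producing airway cells, had a window ratio below the array median in both conditions. Unstimulated FOXA3 was 0.056 with the deposited ratios, 0.062 with loess and 0.082 with first starts, none differing from 0 by the test. Its 8 window probes gave -0.59 and -0.44 unstimulated and -1.04 and -0.91 stimulated, and the change was -0.46 (SE 0.14, adjusted p = 0.0256). This call was lost without unstimulated replicate 2 (change -0.38, adjusted p = 0.162) and without stimulated replicate 1 (-0.39, 0.108) or 2 (-0.52, 0.0562). It was also lost with first annotated starts alone (-0.26, 0.358) and with medians (-0.16, 0.21). The window fall lay upstream, where the 2 probes between 2000 and 250 bp changed by -1.79 (adjusted p = 0.00749). Within 250 bp the change was 0.20 and further downstream in the window -0.23, neither called. Mock log2 signal over the window changed by 0.59 (SE 0.21, adjusted p = 0.17). SMAD3 signal changed by 0.21 (SE 0.26, adjusted p = 0.79), and neither channel was called. The part of mock in the window fall was not tested. Close to the start SMAD3 was above mock at some probes. The mean of the 3 probes within 250 bp was 0.09 unstimulated and 0.29 stimulated. Neither differed from 0 by the test (adjusted p = 0.593 and 0.107). At 229 bp the ratio was 0.95 and 1.23 unstimulated and 0.71 and 0.73 stimulated, above 0 in both conditions, and at -48 it was 0.29 and 0.26 against 0.49 and 0.53, above 0 after TGFβ1 (adjusted p = 0.0187). The largest called fall was at 2666 bp, from -1.53 and -1.25 to -5.36 and -4.92 (change -3.75, adjusted p = 0.00516), with mock log2 signal at 5.93 and 7.34 and SMAD3 at 5.17 and 2.90. At 2839 bp the ratio rose from -5.19 and -5.28 to 0.76 and 0.74 (change 5.99, SE 0.10, adjusted p = 0.00203), while mock was 8.58 unstimulated and 2.74 stimulated and SMAD3 was 3.97 and 4.18. FOXA3 shares 4 of its probes with its neighbour SYMPK.

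**Figure D2:**
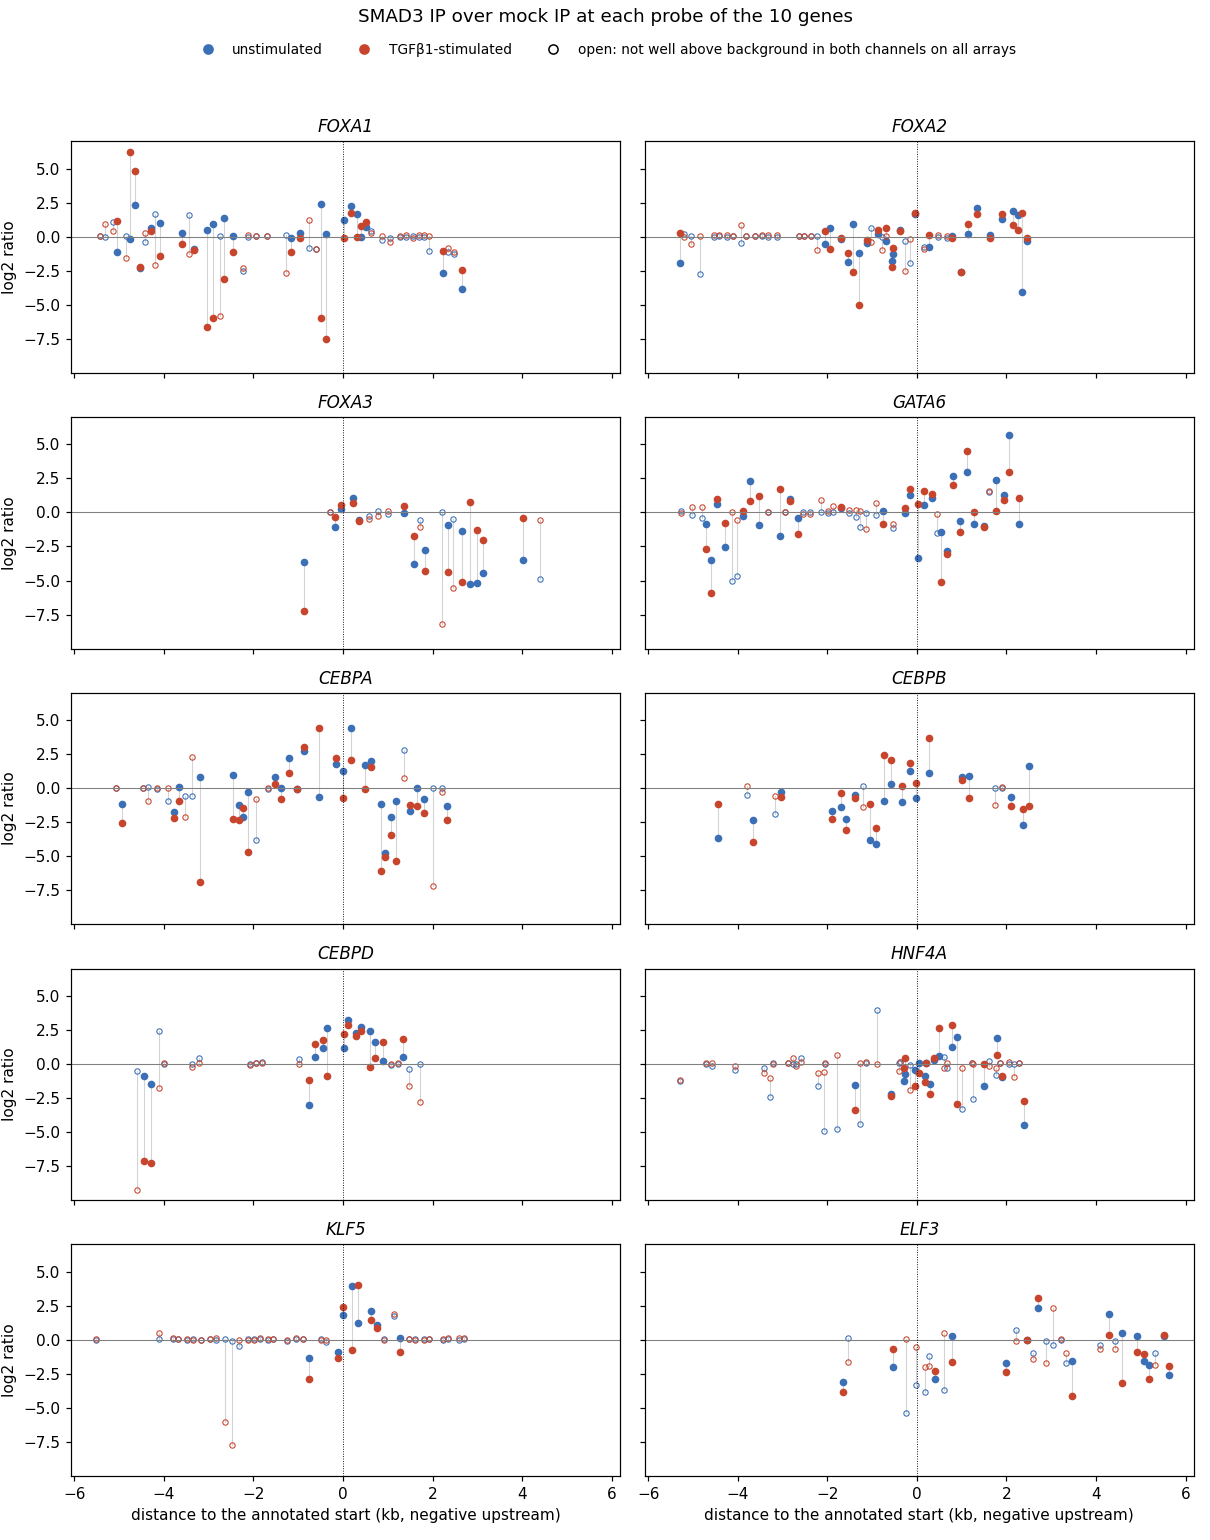
Log2 ratio of SMAD3 to mock signal (y axis) against distance from the annotated start in kb (x axis) for every probe of the 10 genes, each point the mean of 2 replicates. Open points were not well above background in both channels on all arrays. FOXA1 has stimulated values of -5.97 and -7.48 at -497 and -383 bp, and FOXA2 has a positive probe at -37 bp in both conditions.

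Within 250 bp of the start, SMAD3 exceeded mock at FOXA1, CEBPA, CEBPD and KLF5 in unstimulated cells and at FOXA1, GATA6, CEBPB and CEBPD after TGFβ1. This is 4 of 10 genes in each condition, beside 33.2% (unstimulated) and 29.6% (stimulated) of all genes with such probes. FOXA1 and CEBPD were above 0 in both. Between conditions, GATA6, CEBPB and ELF3 rose there and FOXA1, HNF4A and KLF5 fell. This is 30% of the 10 genes in each direction, beside 17.9% higher and 25.9% lower among all genes with such probes. Over all zones of the 10 genes, 47 units of gene and zone were tested, of which 7 rose (14.9%) and 15 fell (31.9%). The shares over all genes were 16.3% and 20.9%.

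**Figure D3:**
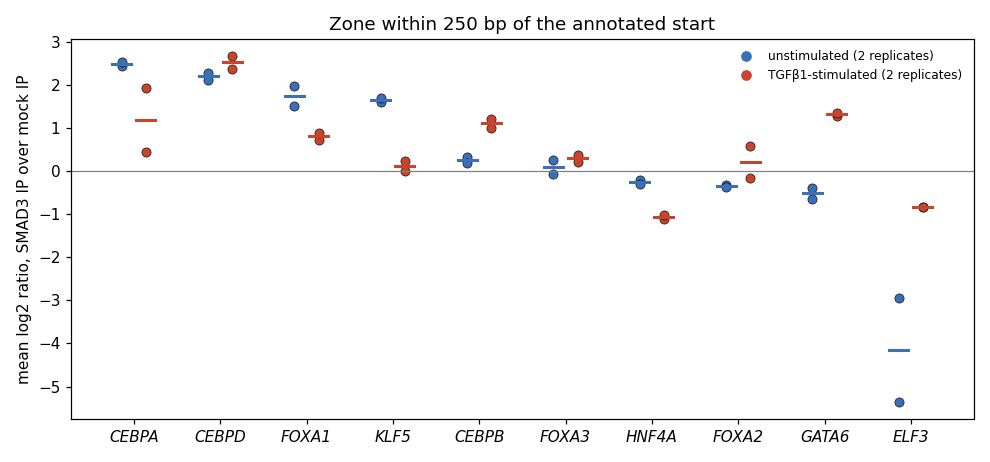
Log2 ratio of SMAD3 to mock signal (y axis) averaged over the probes within 250 bp of the start of each gene, one point per replicate and condition. GATA6 goes from about -0.51 to 1.31 and KLF5 from 1.64 to 0.12, and the unstimulated ELF3 replicates lie at -2.96 and -5.36.

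GATA6, a zinc finger factor of lung and gut endoderm, rose most clearly next to its start. The 3 probes within 250 bp gave -0.64 and -0.38 unstimulated and 1.28 and 1.35 stimulated, that is -0.51 ± 0.18 against 1.31 ± 0.05 (SD, n = 2). The change was 1.83 (SE 0.14, adjusted p = 0.00193), and it was called with any replicate left out. The probe at 29 bp carried most of it, with -3.36 and -3.38 unstimulated and 0.82 and 0.48 stimulated (change 4.02, SE 0.17, adjusted p = 0.003). At that probe mock log2 signal was 7.65 unstimulated and 1.29 stimulated, and SMAD3 was 4.90 and 2.64. Both channels were thus lower after TGFβ1, mock more so, and the part of mock in the rise was not tested. The probes on both sides were positive in all replicates, with 1.06 and 1.48 against 1.59 and 1.79 at -157, and 0.38 and 0.75 against 1.42 and 1.79 at 150 bp, neither changing by the test. Further downstream GATA6 had its highest ratios. At 2064 bp they were 5.77 and 5.57 unstimulated and 2.92 and 2.99 stimulated (change -2.71, SE 0.13, adjusted p = 0.00349), with SMAD3 signal at 12.6 and 10.5. At 1111 bp they were 2.85 and 3.08 against 4.29 and 4.67 (change 1.52, adjusted p = 0.0224), with SMAD3 at 4.61 and 6.49. The largest fall was at 544 bp, from -1.54 and -1.40 to -4.79 and -5.45 (change -3.65), with SMAD3 at 9.06 and 2.90. Over the whole window of 18 probes GATA6 gave -0.47 and -0.51 unstimulated and -0.22 and -0.18 stimulated (change 0.29, adjusted p = 0.104). Over the narrower window the change was 0.85 and was called (adjusted p = 0.00402).

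The C/EBP genes encode leucine zipper factors of differentiation and of the acute phase, and their promoters behaved differently from each other. CEBPA and CEBPD had the highest windows of the 10 genes in both conditions, at the 96th and 97.5th percentile of all genes in unstimulated cells and the 97.3rd and 96.4th after TGFβ1. CEBPB stood at the 9.96th percentile and then at the 56.3rd. The CEBPB window gave -1.16 and -0.94 unstimulated and -0.20 and -0.01 stimulated, without overlap (change 0.95, SE 0.15, adjusted p = 0.000988). The rise was called with any replicate left out. Its single channels were not called, with a mock change of -0.76 (SE 0.21, adjusted p = 0.1) and a SMAD3 change of 0.25 (SE 0.35, adjusted p = 0.805).

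Within 250 bp of the CEBPB start the ratio was 0.33 and 0.20 unstimulated and 1.00 and 1.21 stimulated (change 0.84, SE 0.14, adjusted p = 0.0131). That zone lost its call without unstimulated replicate 1 (adjusted p = 0.0511), without unstimulated replicate 2 (0.0692) and without stimulated replicate 2 (0.0593). A rise with little difference in mock was seen at 279 bp downstream. There the ratio was 1.03 and 1.20 unstimulated and 3.45 and 3.94 stimulated (change 2.58, adjusted p = 0.00968), with mock log2 signal at 0.88 and 1.09 and SMAD3 at 2.62 and 5.48. The largest rise, at -735, was from -1.10 and -0.77 to 2.38 and 2.45 (change 3.35, SE 0.16, adjusted p = 0.00367). Here SMAD3 was 6.54 and 6.39, and mock was 6.85 unstimulated and 3.28 stimulated. At -16, nearest the start, the ratio was -0.62 and -0.83 against 0.14 and 0.64 (adjusted p = 0.0617). Of 25 CEBPB probes, 8 rose and 2 fell, beside 10.5% and 12.4% of all probes. The larger fall was at 2514 bp, from 1.77 and 1.55 to -1.05 and -1.54.

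CEBPA, which drives alveolar maturation, had window values of 0.88 and 1.01 unstimulated and 0.68 and 1.21 stimulated. The change was 0.01 (SE 0.19, adjusted p = 0.982), and the stimulated replicates enclosed the unstimulated ones. Its highest unstimulated probe, at 184 bp, gave 4.30 and 4.51 unstimulated and 0.95 and 3.17 stimulated. The 3 probes within 250 bp gave 2.43 and 2.54 unstimulated and 0.44 and 1.92 stimulated, a difference of -1.30 (SE 0.52, adjusted p = 0.125). Its stimulated replicates differed by more there than in the whole window. By contrast, at -531 the ratio rose from -0.90 and -0.36 to 4.33 and 4.55 (change 5.08, SE 0.25, adjusted p = 0.00374), with SMAD3 log2 signal at 9.30 and 11.5 and mock at 9.31 and 6.36. Across the gene 2 of 39 probes rose and 12 fell, beside 10.5% and 12.4% of all probes. The largest fall was at -3192, from 0.87 and 0.84 to -7.20 and -6.53, with mock log2 signal at -0.02 and 9.43 and SMAD3 at 1.46 and 3.26. At 1 bp, nearest the start, the ratio was 1.21 and 1.30 against -1.57 and 0.12 (adjusted p = 0.173). A fall was also called over the whole zone beyond 800 bp downstream, from -0.97 and -0.84 to -3.03 and -3.02 (change -2.12, adjusted p = 0.001).

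CEBPD, an early-response member of the family, kept SMAD3 above mock at its start in both conditions. Within 250 bp its ratio was 2.28 and 2.12 unstimulated and 2.66 and 2.37 stimulated, the highest of the 10 genes after TGFβ1, with a difference of 0.32 (SE 0.16, adjusted p = 0.205). At 118 bp it was 3.41 and 3.09 against 2.94 and 2.71. At the probe nearest the start, at 17 bp, the ratio rose by 1.06 (adjusted p = 0.0343). Flanking probes moved in both directions. At -353 it went from 2.48 and 2.86 to -0.85 and -0.97 (change -3.58, adjusted p = 0.00399), and at 603 bp from 2.42 and 2.38 to -0.08 and -0.40 (change -2.64, adjusted p = 0.005). The sites at 294 and 408 bp were above mock in both conditions. At -757 the ratio rose from -2.82 and -3.26 to -1.17 and -1.13 (change 1.89, adjusted p = 0.0138). The zone from 2000 to 250 bp upstream as a whole did not change by the test (-0.10, adjusted p = 0.618). Over the window the values were 1.15 and 1.21 unstimulated and 0.92 and 0.77 stimulated (change -0.33, SE 0.14, adjusted p = 0.0761). With medians the window change was -0.70 and called (adjusted p = 0.0311), and with normexp it was 0.185 and not called. More than 2000 bp upstream the ratio fell by 3.18 on the log2 scale (SE 0.30, adjusted p = 0.00287), where mock log2 signal at 4 neighbouring probes from -4610 to -4119 was 8.24 to 10.5 higher in stimulated cells and SMAD3 signal 1.63 to 5.82 higher. The part of mock in that fall was not tested.

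HNF4A, the nuclear receptor of hepatic and intestinal epithelia, has 2 start regions 45.5 kb apart on the array. Within 250 bp of a start, 5 probes gave -0.21 and -0.29 unstimulated and -1.11 and -1.02 stimulated, a fall of 0.82 on the log2 scale (SE 0.12, adjusted p = 0.00914). It was not called without unstimulated replicate 1 (change -0.78, adjusted p = 0.0526). With the probes above background in at least 1 channel the change was -0.57 and not called (adjusted p = 0.0754). With those above background in both channels it was -0.57 and called (adjusted p = 0.0468). The probe at -151 before P2 changed by -1.81, with mock well above background in 2 replicates and SMAD3 in 1. The 2 promoters were set apart after the values were known, and their difference has no test. The 9 window probes at P2 gave 0.32 and 0.49 unstimulated and -0.49 and -0.18 stimulated, whereas the 12 at P1 gave -1.35 and -1.10 unstimulated and -0.35 and -0.30 stimulated. These opposite differences came from probes not well above background in both channels. The probes so measured differed by 0.11 at P2 (4 probes) and 0.07 at P1 (8 probes). The change over the whole window of 21 probes was 0.20 (SE 0.15, adjusted p = 0.306). The probe nearest a start, at -36 before P1, fell by 1.16 on the log2 scale (adjusted p = 0.0189). Single probes downstream moved in both directions. At 498 bp the ratio rose from 0.55 and 0.56 to 2.78 and 2.53 (change 2.10, adjusted p = 0.00575), and at 896 bp it fell from 2.11 and 1.92 to -3.11 and -2.73 (change -4.93, adjusted p = 0.00282).

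KLF5, a zinc finger factor of proliferating epithelium, fell within 250 bp of its start. The 3 probes gave 1.60 and 1.68 unstimulated and 0.00 and 0.23 stimulated, that is 1.64 ± 0.06 against 0.12 ± 0.16 (SD, n = 2), a change of -1.53 (SE 0.14, adjusted p = 0.00271). The fall was called with any replicate left out. It came from the probe at 196 bp, where the ratio was 3.96 and 3.98 unstimulated and -0.80 and -0.67 stimulated (change -4.70, SE 0.11, adjusted p = 0.00203). Mock log2 signal differed little there, 5.43 and 5.70, while SMAD3 signal was 10.0 unstimulated and 5.66 stimulated. At 338 bp the ratio moved the other way, from 1.21 and 1.20 to 3.84 and 4.24 (change 2.83, SE 0.18, adjusted p = 0.00573). Mock was 4.52 and 4.50 and SMAD3 was 6.36 and 9.23. So at these 2 probes the SMAD3 channel differed and the mock channel hardly did, in opposite directions at neighbouring positions. At -3 the ratio was 1.68 and 1.99 unstimulated and 2.34 and 2.47 stimulated (change 0.58, adjusted p = 0.118). Over the window of 16 probes KLF5 gave 0.50 and 0.50 against 0.18 and 0.35 (change -0.24, SE 0.14, adjusted p = 0.187). With the probes above background in at least 1 channel, or in both, the window change was -0.59 and called (adjusted p = 0.0257 and 0.0149). With medians it was 0.028 and not called.

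ELF3, an ETS factor of differentiated epithelium, had the lowest window of the 10 genes in both conditions. Its 10 probes gave -1.71 and -3.28 unstimulated and -1.39 and -1.41 stimulated, and the unstimulated replicates differed by more than the conditions did. The change was 1.09 (SE 0.41, adjusted p = 0.0543). Without unstimulated replicate 1 it was 1.88 and called, and without unstimulated replicate 2 it was 0.30 (adjusted p = 0.286). Within 250 bp the values were -2.96 and -5.36 unstimulated and -0.83 and -0.84 stimulated (change 3.32, SE 0.82, adjusted p = 0.0389), a rise that was not called without either stimulated replicate (adjusted p = 0.168 each). The probe nearest the start, at -26, gave -1.22 and -5.35 unstimulated and -1.19 and 0.06 stimulated. Its change of 2.72 was not called (adjusted p = 0.464). SMAD3 signal within 250 bp was hardly measured. At -249 it was not well above background on any array, and mock was above background in the 2 unstimulated replicates alone, so that the ratios near 0 after TGFβ1 had no signal in either channel. ELF3 did carry SMAD3 above mock downstream, with 2.28 and 2.36 unstimulated and 3.32 and 2.77 stimulated at 2696 bp. At 4585 bp it fell from 0.57 and 0.44 to -2.88 and -3.46 (change -3.68, adjusted p = 0.00628).

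Across the 379 probes of the 10 genes, 47 rose (12.4%) and 63 fell (16.6%), beside 10.5% and 12.4% of all probes. SMAD3 was above mock at 58 probes (15.3%) in unstimulated cells and at 57 (15%) in stimulated cells, of which 36 were shared. These shares stood at 8.92% and 8.22% of all probes. It was below mock at 83 (21.9%) and 92 (24.3%), beside 17.4% and 18.5%. The 10 genes also had more probes with measurable signal, as given above, and the part of that in these counts was not tested.

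Either channel could carry the larger difference at a called probe. Of the 47 rises, 35 were measured in both channels on all arrays, and the mock difference was the larger in 23 of them (65.7%, against 62.1% for all genes). Of the 63 falls, 45 were so measured, and mock was the larger in 19 (42.2%, against 55%). Mock log2 signal differed by at least 4 between the conditions at 10.3% of the probes of the 10 genes and at 7.87% of all probes, and SMAD3 signal at 3.69% and 3.43%. Such mock differences came in runs of neighbouring probes at FOXA1, FOXA3, GATA6, CEBPD and KLF5. The rule for these runs was set after the values were seen. Over whole windows no gene of the 10 was called in either channel alone. Of all genes, 6.34% were called higher and 7.51% lower in mock, and 0.783% and 1.62% in SMAD3. The largest window differences in mock were at ELF3 (-1.90, adjusted p = 0.2), GATA6 (-0.90, 0.0551), CEBPB (-0.76, 0.1) and FOXA1 (0.75, 0.0844).

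**Figure D4:**
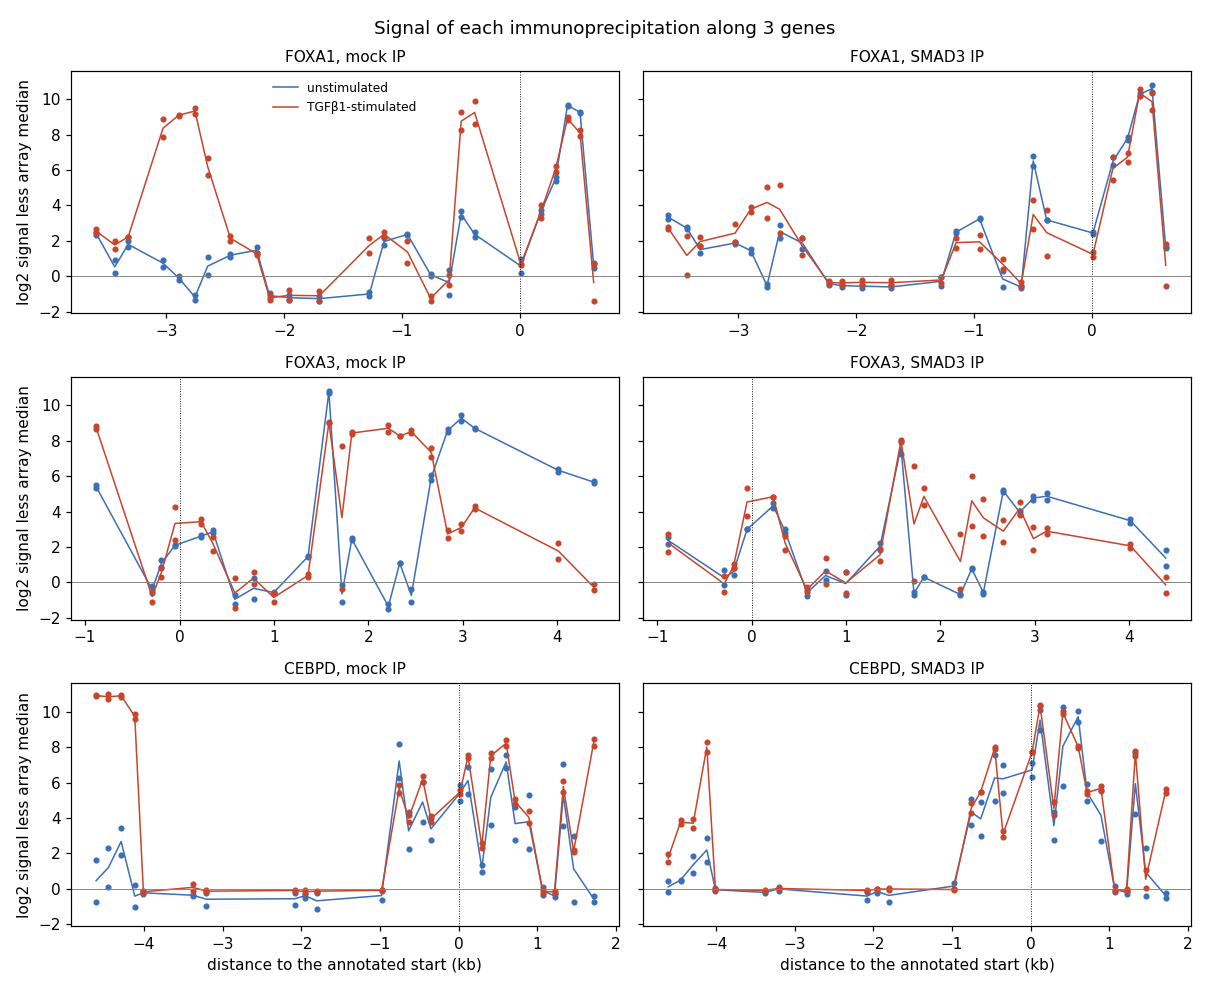
Log2 signal less the array median (y axis) in the mock precipitation (left) and the SMAD3 precipitation (right) against distance from the annotated start in kb (x axis) along FOXA1, FOXA3 and CEBPD, with points for the 2 replicates and lines through their means. In stimulated cells mock signal stands high at FOXA1 from -3029 to -2650 bp and from -497 to -383 bp and at CEBPD from -4610 to -4119 bp, and FOXA3 has a stimulated run from 1720 to 2455 bp and an unstimulated one from 2839 to 4386 bp.

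Among 33 related endoderm and airway transcription factors, 5 window ratios rose and 13 fell, beside the 20.4% and 27.5% of all genes called. The median change was -0.25 against -0.06 for all genes. The forkhead genes moved in both directions. FOXP2, a repressor of the lung epithelium, rose by 2.07 (adjusted p = 1.42e-05), while FOXM1, a factor of proliferating cells, fell by 1.79 on the log2 scale (adjusted p = 1.49e-05) and FOXF1, a factor of lung mesenchyme, fell by 1.28. GATA4, a relative of GATA6, rose by 0.68, and SOX9, a factor of distal lung progenitors, by 0.73. HOPX (HOP on the array), a marker of alveolar type I cells, rose by 1.46 and KLF6 by 0.53. Of the relatives of the C/EBP and hepatocyte factors, CEBPG fell by 1.70, ONECUT1 by 1.16 and HNF4G by 0.44. ETV5 fell by 1.52 and ELF5, an ETS gene like ELF3, by 1.11. KLF2 fell by 0.69 and KLF4 by 0.49, and the grainyhead genes GRHL2 and GRHL1 by 0.68 and 0.47. NKX2-1, the thyroid and lung lineage factor, had a change of -0.03 and was not called.

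These values rest on 2 replicates per condition, and with normexp background correction none of the 3 window calls and 2 of the 22 zone calls of the 10 genes were kept. The 2 zones kept were CEBPA beyond 800 bp downstream and CEBPD beyond 2000 bp upstream. Calls within 250 bp of the start were lost at GATA6 (1.005, adjusted p = 0.217), KLF5 (-0.90, 0.382), FOXA1 (-0.05, 0.975) and CEBPB (0.32, 0.504). In the original setting these 4 changes were the same with only probes well above background in both channels. The reason for the loss was not tested.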

How the data were processed

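SMAD3 and mock (anti-FLAG) precipitates of A549 cells were compared on two-colour Agilent promoter arrays, 4 arrays per condition. The authors amplified the precipitated DNA by PCR and extracted intensities per probe with Agilent Feature Extraction 9.5.1.1. The deposited intensity values used here are the processed signals, which that software had background-subtracted and dye-normalized, with surrogate values for probes not above background. The authors also deposited a table of log2 ratios of the same arrays; these matched the log2 ratios of the processed signals to within 3.13e-06. The study's text names hg17, the files name no build, and no array coordinates are given here. The labels and methods give at most 2 h of stimulation, while the study elsewhere states a shorter time for these arrays, so the time is uncertain.

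Outlier probes (1404) were removed, log2 ratios were centred on each array's median, and the slides of a replicate were joined. Means over the window from 2000 bp upstream to 800 bp downstream (at least 4 probes), over zones (at least 2 probes) and single probes were tested with limma 3.58.1 in R 4.3.3 and adjusted by Benjamini-Hochberg over all 15961 windows, 70051 zones or 473007 probes. Single channels were fitted likewise. Tables and figures used Python 3.11.15, pandas 2.3.3 and matplotlib 3.10.9. The precision is limited by 2 replicates per condition.

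For each of the 10 genes the rule named the probe nearest the start and, of those measured in both channels on all arrays, the highest in each condition and the largest called rise and fall. Other probes were chosen after their values were seen. Related factors were named where called, except for some not reported here, and NKX2-1 was named outside that rule. The genes and lists were chosen with earlier results of these data known. Alternatives were background correction, loess, the deposited log2 ratios, filters on dim probes, other windows, medians, a replicate block, separate slides, first starts, quantile scaling and leaving out replicates. Motifs were counted on both strands. FOXA2 and CEBPD promoter sequences were not analysed here.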

Additional observations from a re-analysis of the deposited data

How the results depend on the processing

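For the windows of the 10 genes, 111 of 151 recomputed changes kept direction and side of the threshold, as did 187 of 260 ratios against 0. Normexp called 0 higher and 0 lower window changes (659 and 996 over all genes), 0 above and 0 below mock when unstimulated, 1 and 1 when stimulated, 0 and 2 zones and 0 and 16 probes. Loess gave 3 higher and 1 lower changes, 2 below mock when unstimulated, and 5 above and 3 below when stimulated. The deposited log2 ratios, not centred, gave 3 higher and 1 lower, 2 below when unstimulated, 6 above and 2 below when stimulated, and 13 higher zones. Medians over the probes gave 0 higher and 1 lower, and 1 above and 1 below in each condition. The narrower window from 1000 bp upstream to 500 bp downstream gave 3 higher and 1 lower. Separate fits per slide gave 2 higher, and first starts gave 1 lower. Quantile scaling of single channels gave 1 higher and 1 lower in SMAD3 and 2 and 4 in mock. Over all genes the share above and below mock depended on centring, with 3303 above and 6143 below in the unstimulated cells, 6755 and 3324 with loess and 8700 and 2793 with the uncentred ratios. In the stimulated cells they were 2648 and 6846, then 7067 and 3213, then 9740 and 2572. With normexp they were 329 and 401 unstimulated and 1935 and 1706 stimulated, and with medians 710 and 1739, then 614 and 2156. Probes above background in both channels gave 3818 below in unstimulated cells. Medians gave 740 higher and 948 lower window changes, against 3256 and 4397. Normexp gave 2254 and 4021 zones against 11414 and 14654, and 8066 and 13394 probes against 49727 and 58731. Quantile scaling gave 3034 higher and 2055 lower windows in SMAD3 and 4397 and 3529 in mock, against 125 and 258, and 1012 and 1198. The causes of these differences were not tested.

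Same-numbered replicates deviated together hardly at all (correlation 0.0209 over all probes), so the numbers were not taken to pair the samples. With the replicate number as a block, 2 windows were higher (CEBPB and ELF3) and 3 lower (FOXA1, FOXA2 and FOXA3). The block gave 225 higher and 483 lower windows over all genes in SMAD3 and 438 and 497 in mock.

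Leaving out each replicate gave 1 to 2 higher and 1 to 2 lower windows, 3 to 4 above and 5 to 6 below mock when unstimulated, 2 to 2 above and 3 to 5 below when stimulated, 2 to 4 higher and 9 to 12 lower zones, 15 to 34 higher and 22 to 48 lower probes, 0 to 0 in either direction for SMAD3 alone and 0 to 3 higher and 0 to 5 lower for mock alone. A condition left with 1 replicate was assumed to vary like the other.

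Directions turned for these window changes, none of which was called in the original setting. FOXA2 was 0.086 and HNF4A -0.37 over the narrower window, CEBPD was 0.18 with normexp, KLF5 was 0.028 with medians, and ELF3 was -0.19 with probes above background in both channels. CEBPA was -0.27 with either filter on dim probes, -0.06 without unstimulated replicate 1, -0.26 without stimulated replicate 2, -0.04 over the narrower window and -0.65 with medians. Against mock when unstimulated, the sign turned for FOXA2 (0.033 with normexp, 0.18 with loess, 0.27 with the deposited ratios), FOXA3 (0.062 with loess, 0.056 with the deposited ratios, 0.082 with first starts), GATA6 (0.08 with the deposited ratios) and HNF4A (0.042 likewise). When stimulated, it turned for FOXA2 (0.043 with the deposited ratios) and HNF4A (0.11, 0.24 and 0.37 with normexp, loess and the deposited ratios). In the same 3 settings GATA6 was 0.18, 0.32 and 0.51, with 0.49 over the narrower window and 0.18 with medians, and CEBPB was 0.31, 0.69 and 0.60, with 0.003 for probes above background in both channels and 1.09 over the narrower window. The FOXA1 fall lost its call with normexp (-0.61, adjusted p = 0.123) and medians (-0.18, 0.266), and CEBPB with normexp (0.39, 0.29) and medians (0.57, 0.423). FOXA3 lost its call with normexp (-0.36, 0.0535), loess (-0.34, 0.071), the deposited ratios (-0.32, 0.0771), probes above background in at least 1 channel (-0.49, 0.0552), the narrower window (-0.51, 0.0596), medians and first starts.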
